A study of Homo sapiens with 12 samples.

Results

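Human genes that encode histone acetyltransferases or subunits of the SAGA complex were examined for the histone variant H2A.Z and its acetylated form (H2A.Zac) in K562 cells whose TIP60 complex did or did not hold TRRAP. The genes were KAT2A, KAT2B, EP300, CREBBP, KAT6A, KAT6B, KAT7, KAT8, SUPT3H and TADA3, 10 of the 20033 protein-coding genes in the annotation. Every deposited region that touched a gene record or the 5 kb to each side of it was taken, with its mark, its class, its place and its width. This gave 77 regions of the 158028 in all lists, of which 24 were H2A.Z and 53 were H2A.Zac.

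K562 is an established line of leukemic blood cells. In the cells used, endogenous EP400 carried a homozygous degradation tag (dTAG) and was degraded with 500 nM dTAGV-1 for 24 h in both groups, controls included. WT cells expressed full-length exogenous EP400 from the AAVS1 locus, and ΔTRRAP cells expressed EP400 that lacked the SANT and HD domains, to which TRRAP binds. Each group was a clonal line, so clone and genotype cannot be told apart. There were 12 ChIP-seq libraries, with 2 biological replicates of input, H2A.Z and H2A.Zac per line, and the deposited lists come from 1 comparison per mark with the replicates merged. Each listed region has a score, the authors' log10 likelihood ratio between the lines, with a cutoff of 3, so that changed regions have a ratio of 3 or more and unchanged regions a lower one. Regions higher in WT are called lost here and regions higher in ΔTRRAP are called gained. The ratio grows with coverage and is not a fold change. Because it has no value per replicate, no comparison below carries a test between the lines. The labels name the cells lymphoblasts. H2A.Zac was listed within 1 kb of the transcription start site (TSS) of 4 of 5 erythroid or megakaryocytic marker genes and of 4 of 5 lymphoid marker genes. H2A.Z was listed at 1 of 5 and 4 of 5 of them. Over all protein-coding genes the shares were 64.0% for H2A.Zac and 62.2% for H2A.Z. The presence of H2A.Zac thus did not set the marker lists apart, while H2A.Z was listed at more of the lymphoid genes. Unchanged H2A.Zac was listed at 4 of 5 erythroid or megakaryocytic genes and at 1 of 5 lymphoid genes.

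Histone acetyltransferases transfer an acetyl group to lysines of histone tails and fall into several families. KAT2A and KAT2B, the GNAT family, are the alternative catalytic subunits of SAGA and of the related ATAC complex. EP300 and CREBBP encode the paralogs p300 and CBP, coactivators known for acetylating histone H3 at enhancers. KAT6A, KAT6B, KAT7 and KAT8 belong to the MYST family, as does KAT5, the catalytic subunit of TIP60. KAT6A and KAT6B act in BRPF complexes, KAT7 in complexes that acetylate histone H3 or H4, and KAT8 in the MSL and NSL complexes. SUPT3H is a core subunit of SAGA with a histone-like fold, and TADA3 is an adaptor that links the catalytic subunit to SAGA and ATAC. TRRAP is shared by SAGA and TIP60, where it binds transcription factors.

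The promoters of 5 of the genes are shown as examples of different patterns at these TSSs. KAT2A and KAT2B had lost and no gained H2A.Zac in the TSS window, KAT7 and TADA3 had gained H2A.Zac over the TSS itself, and SUPT3H had no changed region there. The sequences are the 250 bases before the TSS in RefSeq, assembly GRCh38.p14, 5′ to 3′ on the strand of the gene. Capitals mark matches on either strand to the GC box GGGCGG or the ETS core CCGGAAG.
KAT2A (chr17:42121368-42121617, minus strand): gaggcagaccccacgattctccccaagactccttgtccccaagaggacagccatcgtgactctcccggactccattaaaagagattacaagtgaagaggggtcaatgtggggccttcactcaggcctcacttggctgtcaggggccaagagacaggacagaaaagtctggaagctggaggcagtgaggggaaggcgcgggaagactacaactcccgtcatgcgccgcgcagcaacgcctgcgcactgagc
KAT2B (chr3:20040196-20040445, plus strand): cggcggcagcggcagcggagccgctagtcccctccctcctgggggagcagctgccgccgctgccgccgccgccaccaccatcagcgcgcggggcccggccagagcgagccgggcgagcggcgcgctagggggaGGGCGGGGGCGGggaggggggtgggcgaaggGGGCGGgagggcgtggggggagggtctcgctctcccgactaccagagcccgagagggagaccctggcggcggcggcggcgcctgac
KAT7 (chr17:49788431-49788680, plus strand): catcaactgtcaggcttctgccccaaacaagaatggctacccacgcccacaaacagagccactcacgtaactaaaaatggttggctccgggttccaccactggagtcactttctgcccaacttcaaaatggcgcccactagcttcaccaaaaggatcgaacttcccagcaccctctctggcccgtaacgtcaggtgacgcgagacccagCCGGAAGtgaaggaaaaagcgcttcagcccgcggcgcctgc
SUPT3H (chr6:45377935-45378184, minus strand): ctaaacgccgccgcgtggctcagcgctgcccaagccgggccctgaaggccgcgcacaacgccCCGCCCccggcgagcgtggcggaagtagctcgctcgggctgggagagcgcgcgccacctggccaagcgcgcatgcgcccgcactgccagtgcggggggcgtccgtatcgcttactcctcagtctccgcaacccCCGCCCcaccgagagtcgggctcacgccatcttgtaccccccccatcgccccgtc
TADA3 (chr3:9792474-9792723, minus strand): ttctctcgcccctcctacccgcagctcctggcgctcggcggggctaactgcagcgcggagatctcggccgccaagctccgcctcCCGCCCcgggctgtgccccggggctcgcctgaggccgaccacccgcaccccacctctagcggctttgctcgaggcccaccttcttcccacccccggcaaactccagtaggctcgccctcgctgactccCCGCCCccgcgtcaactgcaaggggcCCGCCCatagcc

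RefSeq promoters reaching 50 bases past the TSS were matched for 8 of the genes at the same TSS. The GC box was found in 5 of these 8 promoters (KAT2B, CREBBP, KAT6B, SUPT3H and TADA3) and in 56.8% of the 21613 promoters in the table. The ETS core was found in KAT7 alone, 41 bases before its TSS, against 12.9% of all promoters. CCAAT was found in KAT6B alone, against 34.9%. No match to the E-box CACGTG, to the E2F forms TTTGGCGC and TTTCGCGC or to the GATA motif AGATAA was found in these 8 windows. The GC content of the printed genes' promoters ran from 57.7% in KAT7 to 80.3% in KAT2B, beside a median of 62.3% over all promoters. Thus GC boxes stood in promoters with lost, gained and unchanged H2A.Zac.

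In the TSS window 2 of the 18 H2A.Z regions were changed, both at TADA3, while 15 of the 30 H2A.Zac regions were changed. Changes were common at TSSs in general. Of all H2A.Zac regions within 1 kb of a protein-coding TSS, 3501 were lost, 8002 were gained and 14591 were unchanged. Of the H2A.Z regions there, 1384 were lost, 2913 were gained and 14299 were unchanged. All 10 genes had an unchanged region of each mark within 1 kb of the canonical TSS. H2A.Zac was gained there in 7 genes (EP300, CREBBP, KAT6A, KAT6B, KAT7, KAT8 and TADA3) and lost in 3 (KAT2A, KAT2B and CREBBP). H2A.Z was gained in TADA3 alone and lost in none. For background, 62.2% of protein-coding genes had an H2A.Z region in this window, and of those 22.3% had a gained and 10.5% a lost one. H2A.Zac was listed at 64.0% of protein-coding TSSs, and of those 57.3% had a gained and 26.0% a lost region. The 7 of 10 gained (70.0%, Wilson 95% confidence interval 39.7 to 89.2) and 3 of 10 lost (30.0%, 10.8 to 60.3) were therefore near the shares of all genes with the mark. These intervals cover counting error only. Changed H2A.Zac in a TSS window where H2A.Z was listed only as unchanged was found at 8 of 10 genes. The share was 47.8% of the protein-coding genes with both marks. This counts presence in the same window, not overlap, and no interval was computed for it. TADA3 and SUPT3H were the exceptions, the former because H2A.Z was gained too and the latter because H2A.Zac was not changed.

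The base of the TSS itself lay in an unchanged H2A.Z region in 8 of 10 genes, all but KAT7 and KAT8, where the nearest H2A.Z region began 19 and 2 bases downstream. The share over genes with the mark was 66.5%. For H2A.Zac the TSS base was in an unchanged region in 6 genes (64.3% of genes with the mark) and in a gained region in 5 genes (27.4% of genes with the mark), CREBBP, KAT6B, KAT7, KAT8 and TADA3. In CREBBP and KAT8 it was in both, since regions of different classes can overlap within a mark. Of the 31 changed H2A.Zac regions over the 10 genes, 17 overlapped an unchanged H2A.Zac region, and 46.7% of all changed H2A.Zac regions did. At SUPT3H the TSS fell in a gap between unchanged H2A.Zac regions that ended 137 bases upstream and began 37 bases downstream.

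**Figure D1:**
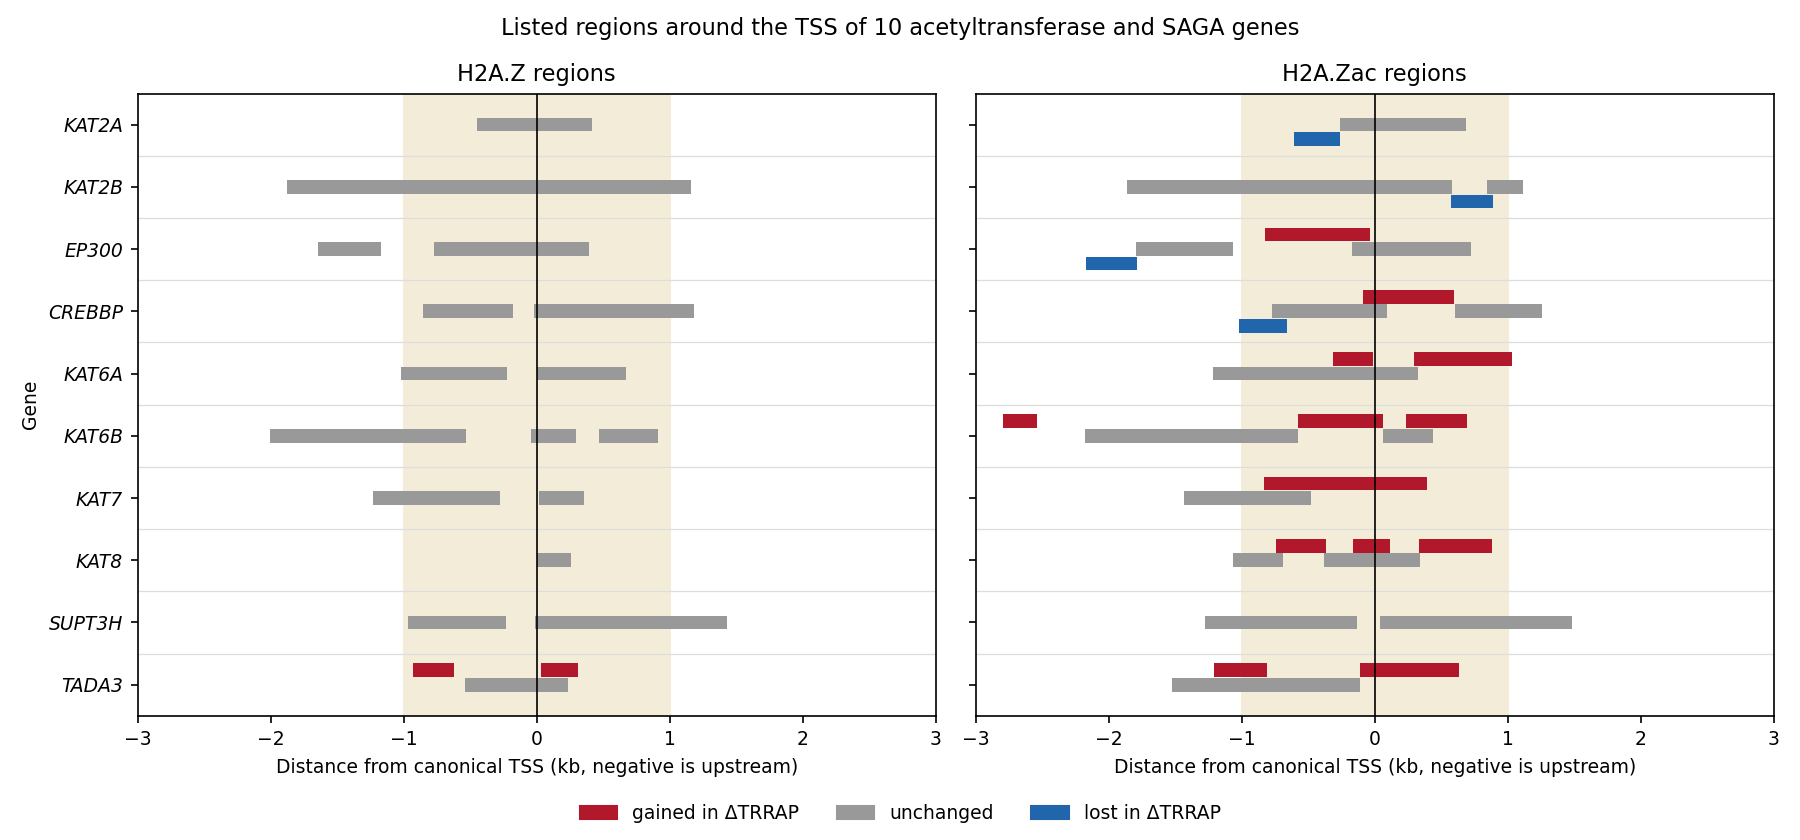
Regions of both marks within 3 kb of the canonical TSS of each gene, with distance in kb on the horizontal axis, the TSS at 0 and the window of 1 kb to each side shaded; bars are listed regions, coloured and offset by class. H2A.Z is unchanged except for 2 gained regions at TADA3, while H2A.Zac has gained regions in the shaded window of 7 genes and lost regions in that of 3.

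KAT2A and KAT2B shared the pattern of lost without gained H2A.Zac. It was shared only at the cutoff and window used. At a ratio of at least 5 only KAT2B kept its lost region, and with a TSS window of 500 bp only KAT2A did. The share of all genes with this pattern was not counted. At KAT2A (chr17:42113111-42121367, minus strand) the unchanged H2A.Zac region covered the TSS, from 262 bases upstream to 686 bases downstream. A lost region of 348 bp with a ratio of 4.71 joined it on the upstream side, 608 to 261 bases before the TSS and also in the TSS window of HSPB9. A second lost region in the downstream flank (chr17:42111951-42113007, ratio 6.01) lay in the TSS window of DHX58, and another (ratio 4.94) lay within DHX58. Thus none of the 3 lost regions was inside the KAT2A record, and all 3 touched or came within 200 bp of an unchanged one.

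KAT2B (chr3:20040446-20154404, plus strand) carried the widest H2A.Z region of the set, 3043 bp, unchanged, with a ratio of 0.583. Its H2A.Zac was unchanged in regions of 2443 and 273 bp, and the lost region of 316 bp between them in intron 1 (ratio 6.88), which overlapped both ends, lay wholly on the unchanged H2A.Z. Outside the TSS window no region was listed over this gene, whose record is 114 kb long.

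EP300 and CREBBP, the paralogs, both showed gained H2A.Zac at the TSS and a lost region farther upstream. At EP300 (chr22:41092592-41180077, plus strand) the gained region (chr22:41091766-41092559, 794 bp, ratio 5.12) ended 33 bases before the TSS, and the lost region of 389 bp (ratio 5.57) lay from 2173 to 1785 bases before it. At CREBBP (chr16:3725054-3880713, minus strand) the gained region of 687 bp (ratio 4.57) ran from 87 bases before to 599 bases after the TSS and the lost region of 363 bp (ratio 4.52) lay from 1020 to 658 bases before it. In both genes unchanged H2A.Z covered over 90% of the gained region, with 93.6% for EP300 and 90.7% for CREBBP. The order along the DNA was therefore the same in the paralogs at the cutoff used, although the ratios of all 4 regions were under the medians of their lists. At a ratio of at least 5 neither CREBBP region would be kept. The share of all genes with this order was not counted.

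The 4 MYST genes among the 10 all had gained and no lost H2A.Zac in the TSS window. KAT5, a MYST gene outside the 10, had only unchanged H2A.Zac there, so the pattern did not hold for the whole family. Of all protein-coding genes with H2A.Zac there, 57.3% had a gained and 26.0% a lost region. The share with gained and no lost was not counted. KAT6A (chr8:41929479-42051994, minus strand) had gained regions on each side of the TSS, with ratios of 3.82 upstream and 6.59 in intron 1. The upstream one, 300 bp wide, was the changed region nearest to the cutoff among the 10 genes. KAT7 (chr17:49788624-49835026, plus strand) had 1 gained region of 1228 bp with a ratio of 7.46, which spanned the TSS from 832 bases before to 395 bases after it and also overlapped FAM117A. Unchanged H2A.Z covered 72.5% of it.

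KAT8 (chr16:31114489-31131393, plus strand), the catalytic subunit of MSL and NSL, held 3 gained regions in the TSS window with ratios of 5.91, 4.57 and 10.5. The last (chr16:31117995-31118542, intron 1) had the highest ratio of the 18 gained H2A.Zac regions over the 10 genes, and no H2A.Z region covered any of it. KAT8 had a single H2A.Z region of 258 bp, the narrowest unchanged one in the set. Its canonical TSS lies 3175 bp downstream of the 5′ end of the gene record.

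KAT6B (chr10:74824927-75032624, plus strand) had 16 regions, the most of any of the genes, and 12 of them were H2A.Zac. Gained H2A.Zac was found in 6, lost in 1 and unchanged in 5. In the TSS window the gained regions had ratios of 5.93 and 5.33, and another of 260 bp (ratio 4.98) lay 2795 to 2536 bases upstream. In the gene body the gained regions lay in intron 3 (1949 bp with a ratio of 7.11, and 744 bp with 5.68) and in intron 13 (316 bp with 7.41), and the lost region of 303 bp in intron 4 had a ratio of 4.39. H2A.Z was unchanged in all 4 of its KAT6B regions, and no H2A.Z region touched the 3 changed regions farther along the gene, from 86644 bases downstream of the TSS onward.

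**Figure D2:**
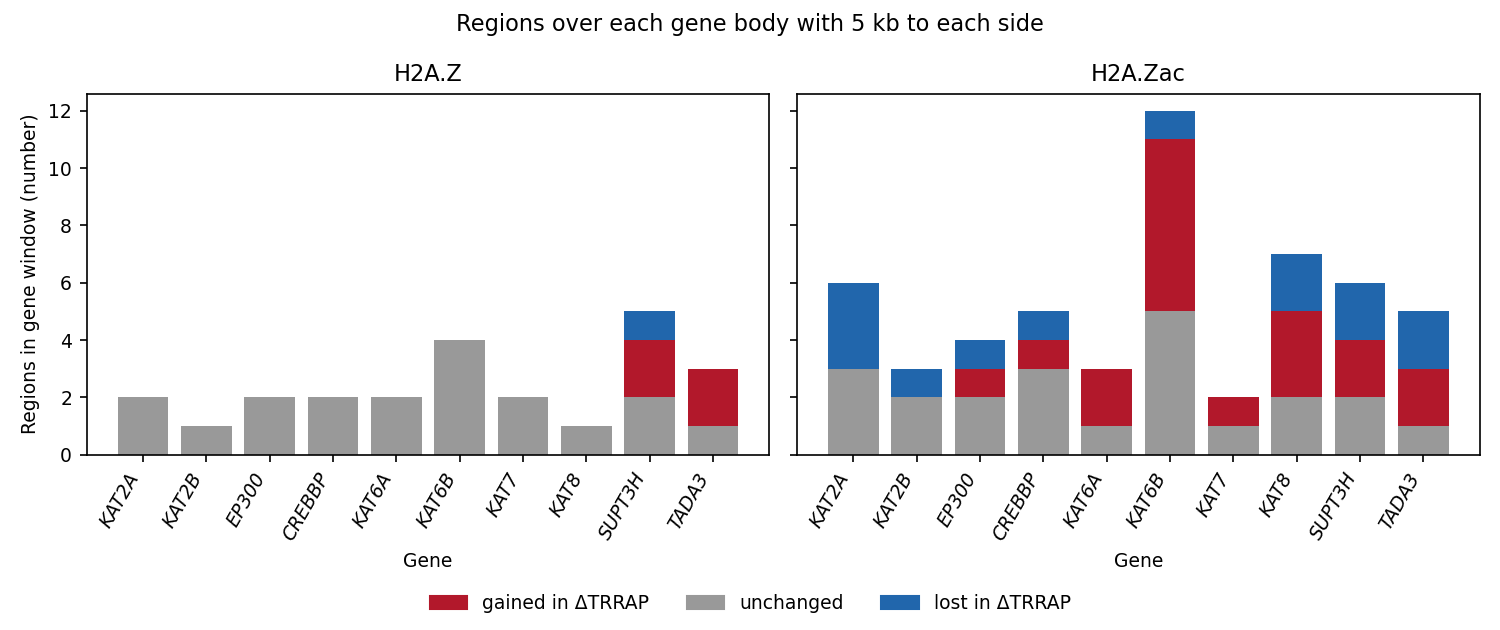
Stacked bars give the number of regions of each class over each gene record with 5 kb to each side, for H2A.Z on the left and H2A.Zac on the right. Changed H2A.Z is found at SUPT3H and TADA3 alone, and changed H2A.Zac at all 10 genes.

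TADA3 and SUPT3H were the genes with changed H2A.Z. TADA3 (chr3:9779967-9793011, minus strand) gained both marks at its TSS. Its H2A.Z gained regions were 306 bp wide with a ratio of 4.61 and 277 bp wide with a ratio of 5.00, and its H2A.Zac gained regions were 406 bp wide with a ratio of 4.12 and 741 bp wide with a ratio of 8.94. The wider one (chr3:9791843-9792583) ran from 110 bases before to 630 bases after the TSS. These regions are shared with the divergent gene ARPC4, and with the ARPC4-TTLL3 readthrough, whose TSSs lie in the same window, and the lists cannot assign a region to either promoter. At the opposite end of TADA3 the H2A.Zac was lost. The region over the last exon and the intron before it (chr3:9779699-9780630, 932 bp) had a ratio of 45.5, rank 265 of the 24482 lost H2A.Zac regions, and a neighbor of 263 bp past the gene end had 13.4. Both lie within the record of OGG1 as well, and no H2A.Z region covered either.

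SUPT3H (chr6:44809317-45377953, minus strand), at 569 kb the longest of the genes, had an unchanged promoter and changes of both marks inside introns. In intron 10, H2A.Zac (ratio 18.7) and H2A.Z (ratio 7.41) were lost together, and the H2A.Z region covered 88.1% of the H2A.Zac region. In intron 2, H2A.Zac was gained (chr6:45351344-45352275, ratio 8.34) with 2 gained H2A.Z regions of ratios 5.83 and 4.64, which together covered 66.7% of it. This gained site also lies inside the RUNX2 record. A lost H2A.Zac region in intron 2 (chr6:45185082-45186198, ratio 21.2) and a gained one in intron 10 (263 bp, ratio 6.74) had no H2A.Z. SUPT3H was the only member whose changes all lay outside the TSS window.

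The central 300 bases of the gained intron 2 site are shown because it is the place over the 10 genes, outside promoters, where both marks were gained. They are taken from hg38 on the plus strand, and capitals mark matches to CCAAT and AGATAA, which overlap by 1 base.
SUPT3H intron, gained (chr6:45351660-45351959, plus strand): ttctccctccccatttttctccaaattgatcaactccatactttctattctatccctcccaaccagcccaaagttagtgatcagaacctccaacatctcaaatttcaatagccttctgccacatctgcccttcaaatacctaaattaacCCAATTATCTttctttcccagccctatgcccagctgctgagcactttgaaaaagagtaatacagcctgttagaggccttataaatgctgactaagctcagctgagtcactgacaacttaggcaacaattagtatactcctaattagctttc

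These bases had a GC content of 41.3%, and the whole gained H2A.Zac region 37.9%, well under the promoters shown above.

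**Figure D3:**
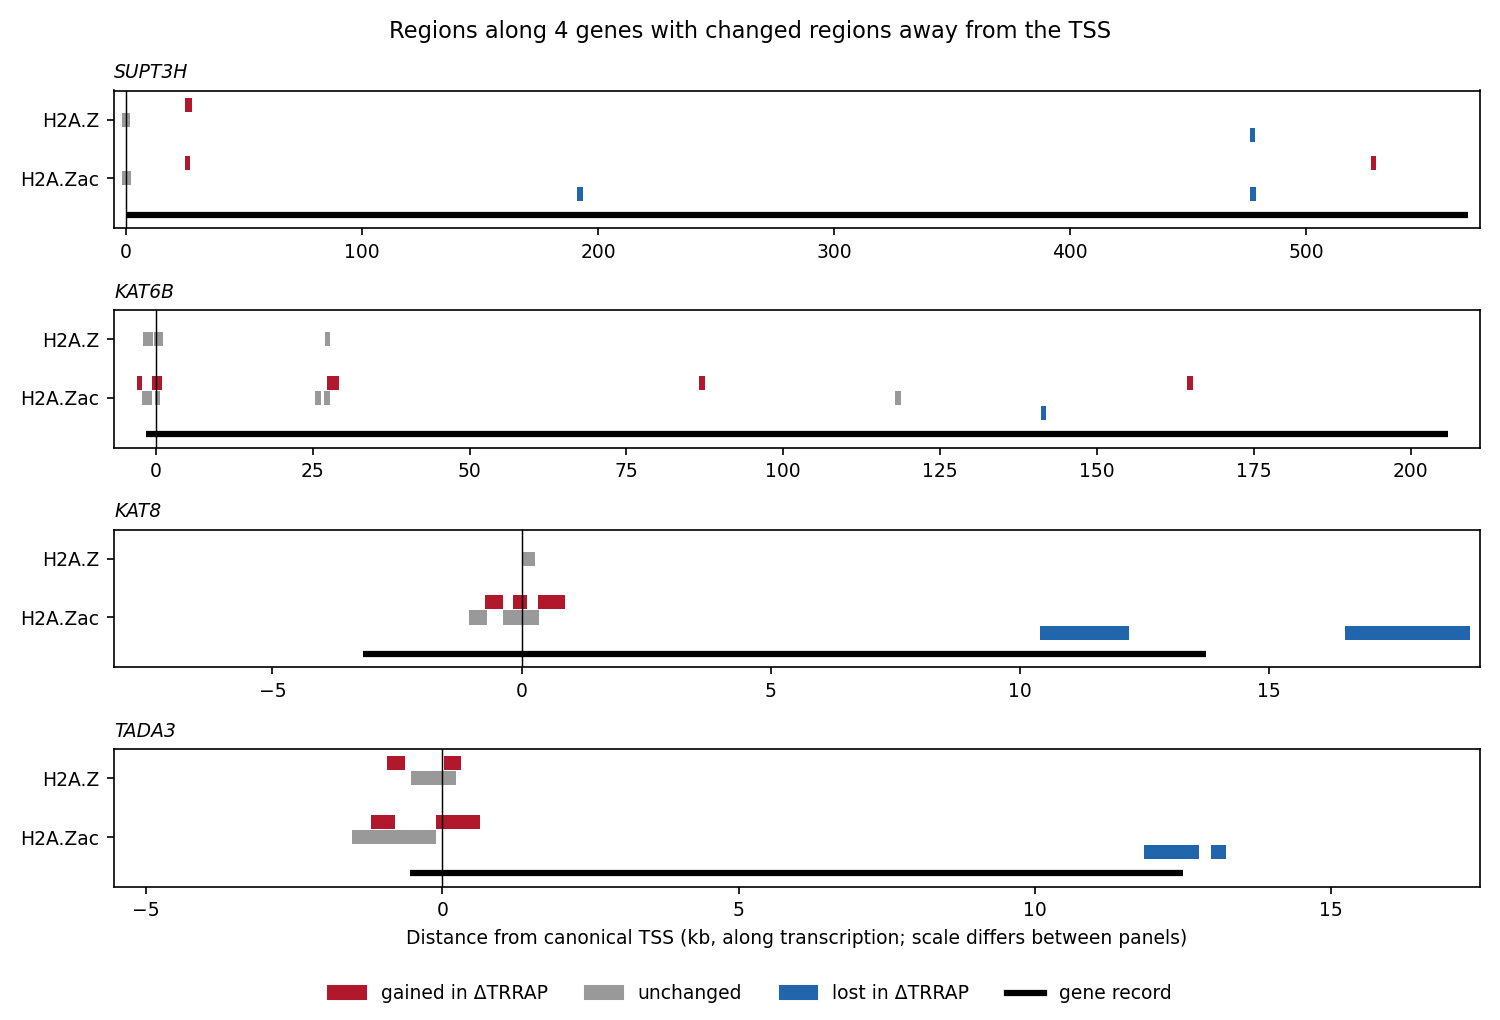
Regions along SUPT3H, KAT6B, KAT8 and TADA3, with distance from the canonical TSS in kb along transcription, the gene record as a black bar and regions offset by class; narrow regions are drawn wider than they are so that they can be seen. Lost H2A.Zac lies at or near the 3′ ends of KAT8 and TADA3 and inside SUPT3H, and gained H2A.Zac lies along KAT6B.

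The highest likelihood ratios over these genes belonged to lost H2A.Zac regions outside their own TSS windows. A ratio of at least 10 was found for 6 lost and 1 gained H2A.Zac region at 3 genes, a gained share of 14.3% (Wilson interval 2.57 to 51.3), and the share of 40.7% among all H2A.Zac regions with such ratios lies within this interval. The 6 losses were the pair at the 3′ end of TADA3, the pair in SUPT3H introns and a pair at KAT8. At KAT8 a region of 1774 bp in the gene body (chr16:31128070-31129843, exon 6 and intron 6) had a ratio of 21.1, and one of 2500 bp in the downstream flank (chr16:31134188-31136687) had 15.6 and lay at the TSS of PRSS8. Of the 6, the SUPT3H intron 10 site alone had an H2A.Z region on it. Within 1 kb of any protein-coding TSS the 10 genes had 12 gained and 5 lost H2A.Zac regions (70.6% gained, against 69.6% of all such regions), and away from TSSs 6 gained and 8 lost (42.9%, against 44.5%). The 8 losses away from TSSs had ratios from 4.39 to 45.5, with a median of 16.1, beside 8.49 over all such losses. The 5 of at least 10 came from KAT8, SUPT3H and TADA3. Among all 20981 losses away from TSSs, 8493 had a ratio of at least 10. The 12 gains at TSSs had a median ratio of 5.62, beside 6.02 over all such gains.

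**Figure D4:**
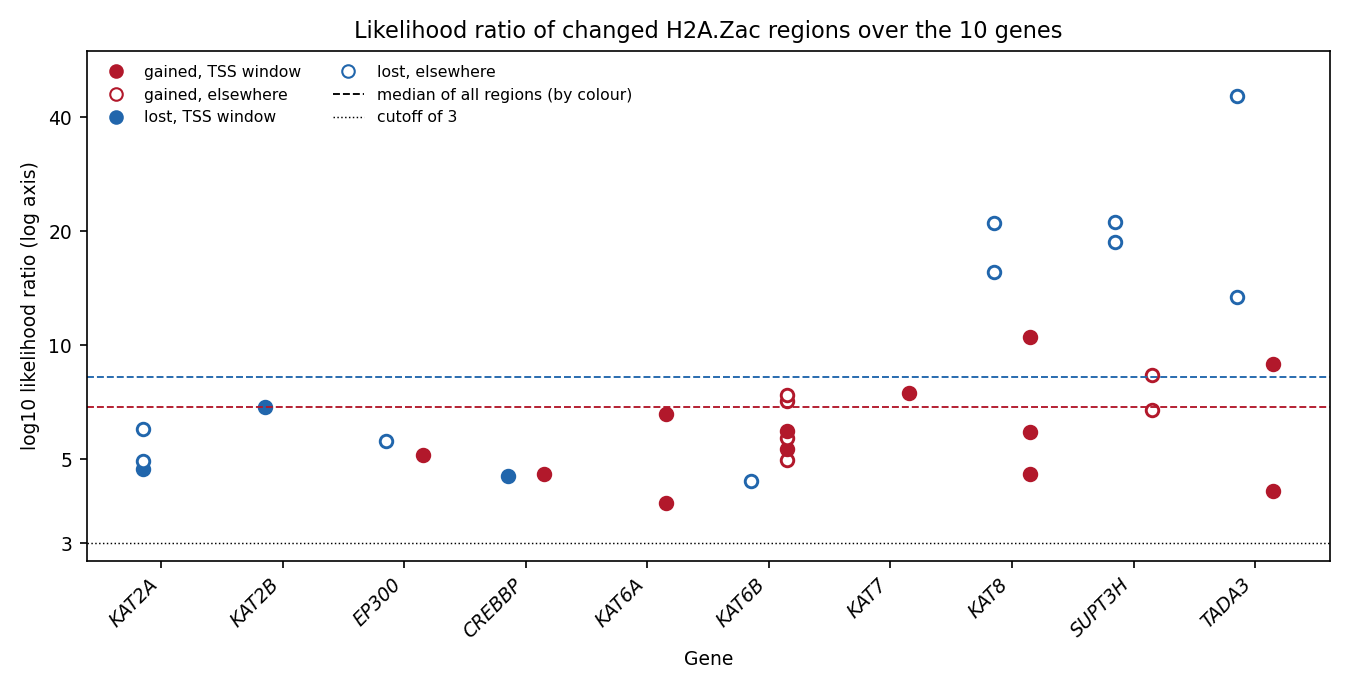
Each point is a changed H2A.Zac region over 1 of the genes, with the log10 likelihood ratio on a log axis; filled points lie in the TSS window of the gene, open points elsewhere, dashed lines are the medians of all lost (8.27) and all gained (6.87) H2A.Zac regions, and the dotted line is the cutoff of 3. All points above 10 are open lost points except 1 gained region at KAT8.

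Counted over whole gene windows, lost H2A.Zac made up 13 of 53 regions (24.5%), gained 18 (34.0%) and unchanged 22 (41.5%). Among all H2A.Zac regions 25.9% were lost and 26.3% were gained. Gained regions were 58.1% of the changed ones (Wilson interval 40.8 to 73.6), beside 50.4% of all changed H2A.Zac regions and 55.8% over the windows of all protein-coding genes, both within the interval. For H2A.Z, 1 of 24 regions was lost, 4 were gained and 19 were unchanged, with 19.8% lost and 14.1% gained among all H2A.Z regions. Changed H2A.Zac was found over all 10 genes, against 72.2% of protein-coding genes, and changed H2A.Z over 2, against 40.4%. The denominators differ, since all 10 genes had regions of both marks and the shares are of all protein-coding genes. Of those, 74.1% had an unchanged H2A.Zac and 75.6% an unchanged H2A.Z region, so these counts are not read as differences. Counts over a window grow with its length, which ran from 18.3 kb at KAT2A to 579 kb at SUPT3H.

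H2A.Z over these genes was nearly always accompanied by H2A.Zac, while the reverse held for a smaller share. At least 25% of the length was covered by the other mark in 23 of 24 H2A.Z regions (95.8%, beside 82.8% of all H2A.Z regions) and in 31 of 53 H2A.Zac regions (58.5%, beside 60.5%). Of the 19 unchanged H2A.Z regions, 17 lay on unchanged H2A.Zac (89.5%, beside 66.9% of all unchanged H2A.Z regions). Another count was 10 on gained (52.6%, interval 31.7 to 72.7, beside 25.1%) and 1 on lost H2A.Zac (5.26%, beside 19.5%). These shares are not matched for place. Of the 19, 16 lay in a TSS window, while 27586 of all 41885 unchanged H2A.Z regions lay away from TSSs. The shares at TSSs alone were not counted, so the excess is not read as a trait of these genes. Gained H2A.Zac had any H2A.Z in 10 of 18 regions (55.6%, beside 57.1%), and lost H2A.Zac in 4 of 13 (30.8%, interval 12.7 to 57.6, beside 55.0%).

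Changed H2A.Zac regions lay beside or over unchanged ones about as often as in the whole lists. Of the 18 gained, 13 lay within 200 bp of an unchanged H2A.Zac region or overlapped it (72.2%, beside 67.3% of all gained), and so did 6 of the 13 lost (46.2%, beside 49.4%). The lost regions that stood apart were those of KAT8, SUPT3H, TADA3 and KAT6B. Median widths were 389 bp for lost, 594 bp for gained and 924 bp for unchanged H2A.Zac, against 702, 664 and 735 bp over all regions. The lost regions ranged from 263 to 2500 bp, on both sides of the median of their list. Their median observed-to-expected CpG ratio was 0.281, against 0.706 for gained regions, with 0.287 and 0.345 over all regions. Gained regions over these genes were thus richer in CpG than lost ones, and most of them lay in TSS windows.

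The direction of change around the genes varied from gene to gene. In the 1 Mb to each side of the window, with the window itself left out, 71.9% of 57 changed H2A.Zac regions were gained around EP300, but 24.5% of 53 around KAT6B and 30.6% of 36 around KAT2B. KAT6B thus held 6 gained and 1 lost H2A.Zac region in surroundings where most changed regions were lost, while KAT2B held no gained region in surroundings of that kind. For H2A.Z, 1 of 33 changed regions was gained around SUPT3H (3.03%), although 55.4% of those on the whole of chromosome 6 were, and the gained pair in intron 2 of SUPT3H stood against these surroundings. Around the other 9 genes the gained share of H2A.Z ran from 12.9% at KAT6B to 55.6% at EP300.

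**Figure D5:**
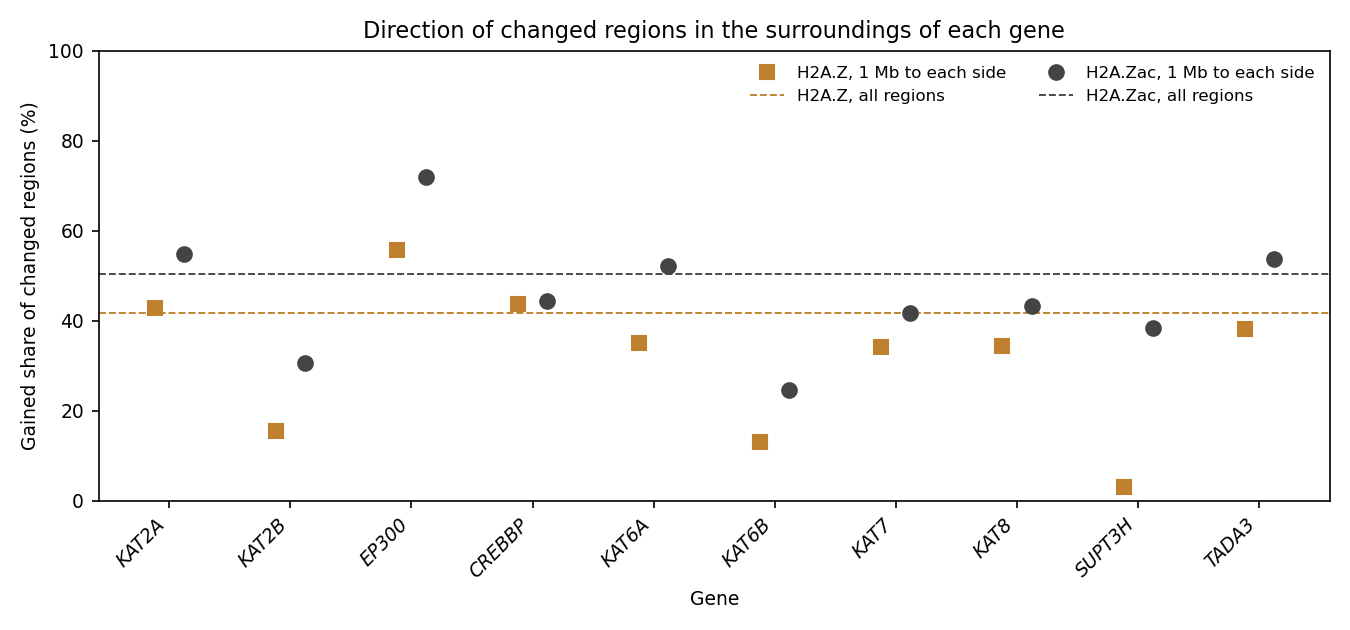
Share of changed regions that were gained, in percent, in the 1 Mb to each side of each gene window, with squares for H2A.Z, circles for H2A.Zac and dashed lines for all regions (41.6% and 50.4%). The shares for H2A.Zac run from 24.5% at KAT6B to 71.9% at EP300, and H2A.Z around SUPT3H is the lowest at 3.03%.

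Other genes of histone acetylation, 51 in 6 lists, were taken for context: the other subunits of SAGA and of the ATAC, MOZ/MORF and HBO1, and MSL and NSL complexes, 4 further acetyltransferases and 4 class I histone deacetylases. All 51 had H2A.Zac at the TSS, and 50 had H2A.Z. H2A.Zac was gained at 42 of them (82.4%, interval 69.7 to 90.4) and lost at 9 (17.6%, 9.57 to 30.3), beside 57.3% and 26.0% of protein-coding genes with the mark. H2A.Z was gained at 7 (14.0%, 6.95 to 26.2) and lost at 4 (8%, 3.15 to 18.8) of the 50 genes with the mark, beside 22.3% and 10.5%. The gained share of H2A.Zac was thus above that of all genes, and the other shares had the background within their intervals. With a ratio of at least 5 the gained count was 27 of 51 (52.9%, interval 39.5 to 65.9), beside 43.7% of protein-coding genes with H2A.Zac at the TSS, and with at least 10 it was 4 (7.84%, 3.09 to 18.5), beside 8.50%, so at these cutoffs the share of all genes lay within the interval. Set beside the same 57.3% gained and 26.0% lost, the other SAGA subunits had gained H2A.Zac at 16 of 17 TSSs and lost at 2. TAF10 was the one with no change. The count falls at a ratio of at least 5, since SGF29, SUPT7L, TAF5L, TAF6L, ATXN7 and ENY2 had gained ratios of 3.76 to 4.78. The ATAC list had gained H2A.Zac at 5 of 7 and lost at 0. The MOZ/MORF and HBO1 list had it gained at 6 of 9 and lost at 1. The MSL and NSL list had it gained at 8 of 10 and lost at 4. In the remaining lists H2A.Zac was gained at 3 of 4 acetyltransferases and at 4 of 4 class I histone deacetylases, and lost at 1 in each. No interval was computed for the single lists, which are small, so none of these counts is read as a difference from all genes.

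TRRAP, the subunit detached from TIP60 in the mutant, had gained H2A.Zac in intron 1 (547 bp, ratio 8.49) beside unchanged H2A.Zac and over unchanged H2A.Z. KAT5, the acetyltransferase of TIP60, had 1 unchanged region of each mark, 3232 bp wide for H2A.Zac, and no change. The highest ratios of gained H2A.Zac among the 51 genes were 15.1 at BRPF1, a scaffold of the KAT6A and KAT6B complexes, 14.6 at HDAC3, a deacetylase, and 11.0 at USP22, the deubiquitinase of SAGA. H2A.Z was listed as unchanged at these genes. The highest ratios of lost H2A.Zac were 11.7 at PHF20, an NSL subunit, 8.34 at BRPF3, a partner of KAT7, and 7.36 at TADA1, a SAGA core subunit. H2A.Z was lost too at PHF20 (ratio 6.32) and at BRPF3 (ratio 6.73). TADA1 and BRPF3 also had a gained H2A.Zac region in the same window, with ratios of 5.16 and 4.01, as CREBBP did among the 10 genes.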

How the data were processed

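H2A.Z and H2A.Zac were measured by ChIP-seq in the WT and ΔTRRAP lines, grouped as labelled. The authors aligned the reads to hg38 with Bowtie2, scaled the lines to their effective depth and compared them with MACS2 bdgdiff, with replicates merged and regions of at least 250 bp, and kept a region if reproducible peaks (IDR up to 0.05) held 25% of it. The submitters' processing notes name Bowtie2 2.4.5, MACS2 2.2.7.1, bedtools 2.30.0 and deepTools 3.5.1. The deposited score is the authors' log10 likelihood ratio, 1 per region. The lists named for the first condition were read as higher in WT, the line named first. Depth is unknown here, no replicate could be left out, and nothing per replicate could be tested.

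Regions were counted over GENCODE release 44 gene records with 5 kb to each side. The TSS was that of the Ensembl canonical transcript, with a window of 1 kb to each side, and 25% coverage counted as overlap. Shares have Wilson 95% intervals, which cover counting error only, and neighboring regions are not independent. The members and lists were chosen with earlier results of these data known. All 10 genes are described, and of the partner lists TRRAP, KAT5, the 3 highest ratios in each direction and neighbors with a TSS in the window; TAF10, OGG1 and FAM117A were named after their values were seen. Promoters come from RefSeq, GRCh38.p14. The promoters of KAT6A and KAT8 are not shown, and 1 further marker gene, beside the 10 used, and 1 sequence are not reported here.

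Python 3.11.15, numpy 2.4.6, pandas 2.3.3, scipy 1.17.1 and matplotlib 3.10.9 were used. Counting was tested on simulated data, and the H2A.Z coverage of 94586 H2A.Zac regions was compared with bedtools 2.31.1, with 0 differences. Alternatives were other flanks, overlaps, ratio cutoffs, TSS definitions and windows, merging within 1 kb, a minimum width, base pairs in place of regions, and each gene left out in turn.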

Additional observations from a re-analysis of the deposited data

How the results depend on the processing

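Of 177 alternative values, 154 stayed within 1.5 times the count or within the interval of the value reported, and 23 moved. The 154 is not a measure of robustness. Leaving out a gene without a region of a class cannot move that count. Some intervals are also wide, such as 37.6 to 96.4 for the gained share of changed H2A.Z. A ratio of at least 10 left 6 lost and 1 gained H2A.Zac region (14.3% gained), 0 lost and 0 gained H2A.Z regions, and at the TSS 1 gene with gained and 0 with lost H2A.Zac and 0 with gained H2A.Z. With a ratio of at least 5, 2 H2A.Z regions were gained and 1 gene had lost H2A.Zac at the TSS, as with a window of 500 bp (1 gene). Regions of at least 500 bp gave 6 lost and 10 gained H2A.Zac and 1 gained and 12 unchanged H2A.Z regions. Without the flanks 6 lost H2A.Zac regions were left, since others lie beyond the gene ends. Merging within 1 kb gave 2 gained and 12 unchanged H2A.Z regions, and leaving out regions near another TSS gave 2 gained. Leaving out each gene in turn gave 12 to 18 gained and 10 to 13 lost H2A.Zac regions (50 to 64.3% gained), 2 to 4 gained, 0 to 1 lost and 15 to 18 unchanged H2A.Z regions and 66.7 to 100% gained H2A.Z. SUPT3H, which holds the lost H2A.Z region, and TADA3 decide the H2A.Z counts.

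No paired analysis was possible because the lists hold no value per replicate. Depth is unknown here, and it limits what is listed. The ratio grows with depth, so ratios compare regions within a list, not the size of a change. Whether it depends on region width was not tested. The lists also hold parts of 1 peak as several regions.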

Other observations

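Of the 10 marker genes used to check the cell type, 4 had a changed region at the TSS. Such changes were common, since 57.3% of protein-coding genes with H2A.Zac at the TSS had a gained and 26.0% a lost region. For H2A.Z these shares were 22.3% and 10.5%. At CD79A, a B cell receptor subunit, both marks were lost at the TSS, H2A.Zac with a ratio of 42.9 and H2A.Z with a ratio of 17.9. At EBF1, a B cell transcription factor, both were gained, H2A.Zac with a ratio of 16.9 and H2A.Z with a ratio of 10.3. An unchanged H2A.Z region (ratio 1.87) was listed in the EBF1 window too. Of the erythroid factors, TAL1 had gained H2A.Zac (ratio 7.28), KLF1, NFE2 and GFI1B were listed as unchanged, and GATA1 had no region in its TSS window, as was the case for PAX5 among the lymphoid genes. BCL11B had lost H2A.Zac (ratio 5.56) with unchanged H2A.Z, and CD3E was listed as unchanged for both marks.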
